A study of Mus musculus with 4 samples.

Results

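The comparison set 1 array labelled as Ehf knockout intestinal stem cells against 1 array labelled as wild-type non-stem cells, 2 of the 4 arrays of the series. Its members are the 31270 of 72688 array features that carried exactly 1 gene symbol, which gave 30714 genes, and each difference is the value on the Ehf knockout array minus that on the non-stem array. Both labels name cells of the small intestine of 8-week-old mice that carry GFP and CreERT2 at Lgr5. The Ehf knockout sample was GFP-positive and Ehf-/-, and the non-stem sample was GFP-negative and wild-type. The other arrays, GFP-positive wild-type stem cells and GFP-positive cells with a LncGata6 mutation, are given beside members only. RNA was total RNA and the array was the mouse Clariom D, which reads coding and long noncoding transcripts. The labels do not say how Ehf was deleted, whether the wild-type non-stem mice were littermates, or how many mice gave each sample. The cell collection text names sorting of ILCreg, a kind of innate lymphoid cell, although the sample labels name a GFP sort, so the gate is uncertain. Genotype, GFP gate, animal and array differ together between the 2 arrays, and their parts in any difference cannot be told apart.

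Lgr5-positive stem cells lie at the crypt base and renew the gut epithelium under Wnt signals, while the GFP-negative epithelium holds their absorptive and secretory progeny. Ehf is a DNA-binding factor of the ETS family found mainly in epithelia. Neutrophils fill their granules in a fixed order in bone marrow, first with myeloperoxidase and serine proteases, then with lactoferrin and last with gelatinases. Hepatocytes secrete most plasma proteins, and kidney tubules reclaim filtered solutes through dedicated transporters.

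On the array labelled Ehf knockout, called the knockout array after its label, transcripts of neutrophils, other blood cells and dividing cells were higher, and transcripts of liver, kidney and gut epithelium were lower. S100a9, a subunit of the antimicrobial protein calprotectin, read 11.67 there and 7.96 on the non-stem array, 13.1-fold higher. Alb, serum albumin, read 1.83 against 12.52, at least 160-fold lower, and Kap, an androgen-driven kidney protein, read 1.41 against 12.30, at least 138-fold lower. Values are log2, so a difference of 1 is 2-fold. A gene was counted where the difference was at least 2-fold and the brighter value reached the 75th percentile of its array, 4.60 and 5.26 in that order. By this rule 923 genes (3.01%) were higher and 3021 (9.84%) lower. At 4-fold or more these were 437 (1.42%) and 1402 (4.56%). Among protein coding genes alone the 2-fold shares were 3.15% higher and 13.8% lower. Negative control features set a second limit, their 95th percentile, 5.19 on the knockout array and 5.16 on the other. A dimmer value under it was replaced by it, and the fold is then a bound, given as "at least". The dimmer value was under the limit for 2263 of the lower and 629 of the higher genes. Among the latter were 146 with both values under it, which have no fold. There was 1 array a group and no replicate, so no test was made, and the precision is limited by that number of arrays.

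**Figure D1:**
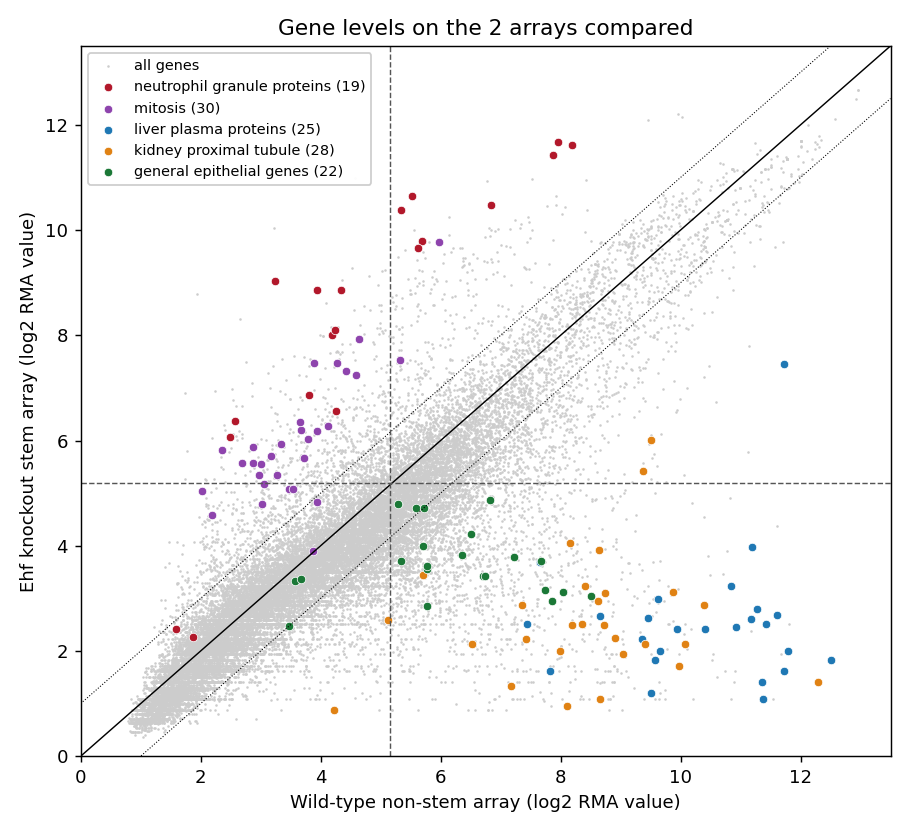
Each point is a gene, with its log2 value on the wild-type non-stem array (x) and the knockout array (y), and 5 gene lists are coloured with their number measured. Solid line, equality; dotted lines, 2-fold; dashed lines, control limits of 5.16 and 5.19; neutrophil granule and mitosis genes lie on or above equality, and nearly all liver, kidney and epithelial genes lie below it.

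The median difference over all genes was -0.29, so a list's median is read beside that value. Centring each array moved this median to 0.00 and changed the share of counted genes that were higher from 23.4% to 34.8%. Cyclic loess, a rescaling by level, gave 38.7%, and quantile normalization gave 48.6%, with 1757 genes higher and 1859 lower. The 2 arrays correlated at r = 0.863 across features, and features do not serve as replicates.

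Identical values were common on the knockout array. On it 16858 of the 30714 genes (54.9%) lay on 222 levels, each shared by at least 10 genes that took 10 or more different values on another array. The fullest level, 1.09, held 1158 genes. The same held for 11 non-stem genes, 38 for wild-type stem cells and 0 for LncGata6 mutant cells. Shared levels made up 65.7% of the genes under the control limit and 200 genes above it, and the highest was 5.84. Of the lower genes 1182 (39.1%) had a shared value on the knockout array, against 18 (1.95%) of the higher genes. The order of such low values was therefore not read, and Mup3, Fgg and Tdo2, all at 1.09, are not ranked on that side.

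**Figure D2:**
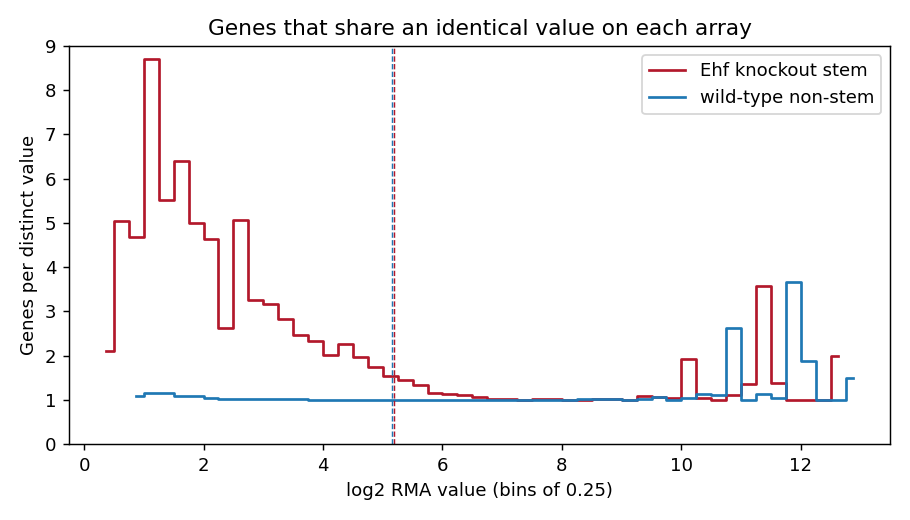
Genes per distinct log2 value (y) in bins of level (x) on the 2 arrays, with the control limits dashed. On the knockout array low values were shared by up to 8.70 genes on average in a bin, while on the non-stem array sharing was near 1 except among bright repeated genes.

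The labelled cell type and genotype were checked first. Ehf read 3.03 on the knockout array, 3.75 for non-stem cells, 6.99 for wild-type stem cells and 5.09 for LncGata6 mutant cells. The first pair lay under their control limits, so this comparison gives no fold for Ehf. Lgr5, the R-spondin receptor that defines the sort, read 2.79, 3.03, 9.41 and 3.03 in the same order. It was low on both arrays compared, although the Ehf knockout sample is labelled GFP-positive. Lgr4, its broadly expressed relative, read 3.10 against 7.25, at least 4.18-fold lower. Olfm4, a secreted marker of crypt base cells, read 5.86 against 5.42, and Ascl2 (3.95 against 3.86) and Axin2 (3.99 against 4.20) were under the limits on both. Gata6, a gut endoderm factor, read 3.17 against 5.08 and was not counted. Over the crypt base stem cell list, 24 of 28 genes were measured, 1 was higher, 6 were lower and the median was -0.76. With values under the control limit set to it the median was 0.03, which is only the difference between the limits of the arrays. On the knockout array 21 of the 24 were at or under the limit, and only 9 were above it on the non-stem array. Igfbp4, a binder of insulin-like growth factors, read 5.40 against 8.60, 9.23-fold lower. The member that was higher, Cdca7, a gene of dividing cells, lost its count when the control limit was required.

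General epithelial genes were low on the array labelled Ehf knockout. Epcam, the adhesion molecule of epithelia, read 3.78, against 7.22 for non-stem, 9.70 for wild-type stem and 10.65 for LncGata6 mutant cells. The knockout array alone was under its control limit. Of 22 measured epithelial genes 0 were above that limit, while 19 were above it on the non-stem array. The list had 17 lower and 0 higher, with a median of -2.25, or -0.88 with dim values at the limit. Among these were Cdh1 (E-cadherin, 3.71 against 7.67), Krt8 (a simple epithelial keratin, 2.96 against 7.85) and Vil1 (villin of the brush border, 3.16 against 7.73). Ptprc, the pan-leukocyte CD45, went the other way, at 8.41 against 6.25, with 5.72 and 7.80 on the wild-type and LncGata6 mutant stem arrays. The epithelial label of this sample is thus not borne out by these markers, and the sample is named by its label only. In a bulk sample fewer cells of a type and less RNA per cell cannot be told apart.

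**Figure D3:**
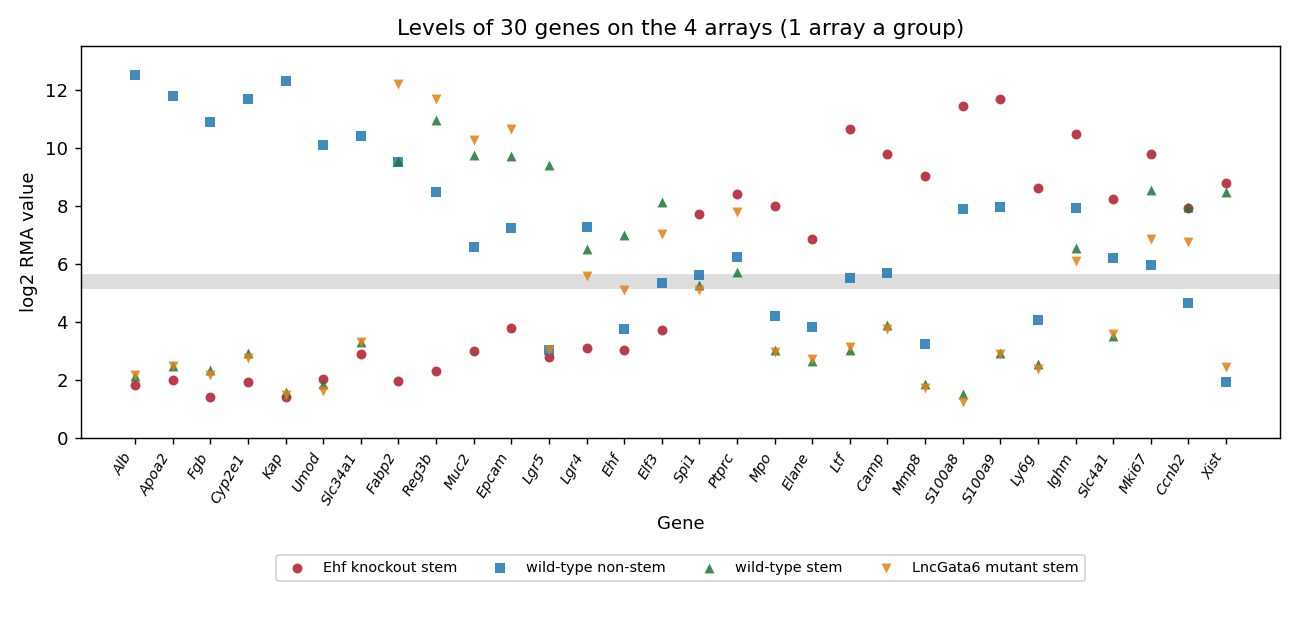
Log2 values (y) of 30 genes (x) on each of the 4 arrays, 1 array a group, with the grey band spanning the arrays' control limits. The liver and kidney genes shown were high on the non-stem array alone, and granule genes were highest on the knockout array. Gut epithelial genes such as Epcam were below the band on the knockout array alone.

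The highest median of the 59 lists was that of neutrophil granule proteins, of which 17 of 19 measured were higher, 0 lower, with a median of 3.79. Beside it the share over all genes was 3.01%. To show what stands before these genes, 250 bases before the start were taken from RefSeq (GRCm38.p6). The ETS letters AGGAAGT, sought on both strands, stood in 9 of 18 granule promoters (50%), in 6 of 16 general leukocyte promoters (37.5%), in 0 of 20 liver plasma protein promoters, and in 7.8% of 27025 promoters in the table. A match is a description of letters and not a binding site. In all 15 motif forms were searched, and those shown, like the promoters, were chosen after values and matches were seen. Capitals mark the match, here as its reverse complement. The windows are chr9:7558179-7558428 (plus strand) for Mmp8, chr3:90668821-90669070 (plus) for S100a8 and chr3:106167565-106167814 (minus) for Chil3.
Mmp8: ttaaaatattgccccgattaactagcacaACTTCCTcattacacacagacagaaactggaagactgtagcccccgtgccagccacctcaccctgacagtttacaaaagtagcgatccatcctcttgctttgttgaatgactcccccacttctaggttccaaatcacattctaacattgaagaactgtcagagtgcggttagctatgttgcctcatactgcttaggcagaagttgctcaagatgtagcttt
S100a8: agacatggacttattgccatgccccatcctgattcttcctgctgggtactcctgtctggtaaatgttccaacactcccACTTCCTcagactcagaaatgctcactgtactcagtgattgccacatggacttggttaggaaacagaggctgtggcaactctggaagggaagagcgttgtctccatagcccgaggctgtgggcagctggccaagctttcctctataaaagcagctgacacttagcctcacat
Chil3: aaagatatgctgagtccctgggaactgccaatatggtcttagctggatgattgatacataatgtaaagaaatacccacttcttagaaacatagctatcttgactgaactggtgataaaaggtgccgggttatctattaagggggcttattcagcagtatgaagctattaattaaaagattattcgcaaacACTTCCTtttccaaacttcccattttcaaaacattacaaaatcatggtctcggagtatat

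The granule genes spanned all classes of granule. Of the early azurophil proteins, Mpo (myeloperoxidase) read 8.00 on the knockout array, 4.20 on the non-stem array and 3.03 and 2.96 on the remaining ones. Only the first was above its control limit, and the fold was at least 7.16. The serine proteases Elane, Prtn3 and Ctsg read 6.87, 6.56 and 6.36 on the knockout array, all below the limit elsewhere. Of the specific granule, Ltf (lactoferrin, which binds iron) read 10.65, 5.53, 3.05 and 3.15 in the same order and was 34.9-fold higher. Camp, the cathelicidin, read 9.80 against 5.70 (17.1-fold), Lcn2, a siderophore trap, 9.67 against 5.62 (16.5-fold) and Ngp 10.47 against 6.84 (12.3-fold). These genes were thus above the limit on both arrays compared, and higher on the knockout array. The collagenase Mmp8 read 9.04 against 3.25 (at least 14.7-fold) and the gelatinase Mmp9 8.11 against 4.24 (at least 7.72-fold). Chil3, a chitinase-like protein, read 10.39 against 5.33, 33.3-fold. The cytosolic S100a8 read 11.44, 7.87, 1.51 and 1.24. Both arrays compared held it well above their limits, and both other stem-labelled arrays did not. Lyz2, lysozyme of myeloid cells, read 11.63 against 8.18 with 10.54 on the wild-type stem array, where its near-copy Lyz1 of Paneth cells read 11.59, so signals of the copies may mix. The stefins Stfa2 and Stfa3 were under the limits on both arrays.

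Neutrophil receptors and enzymes were higher in 15 of 20 measured and lower in 0, with a median of 2.82, or 1.28 with dim values at the limit. Ly6g, the surface marker used to identify mouse neutrophils, read 8.62 on the knockout array with 4.08 for non-stem, 2.54 for wild-type stem and 2.38 for LncGata6 mutant cells. It was above the limit on the first alone, at least 11-fold over the non-stem array. Itgam (CD11b) read 8.16 against 4.18, and the receptors Csf3r, for G-CSF, and Cxcr2, for chemokines, read 6.53 and 6.29 against 4.21 and 3.84. The oxidase subunits Cybb and Ncf1 read 9.47 against 5.75 (13.2-fold) and 8.79 against 5.51 (9.68-fold). Alox5ap, which presents arachidonate for leukotriene synthesis, was 18.5-fold higher, and Retnlg, a resistin-like protein, at least 17.3-fold. Hp, haptoglobin, is made by both neutrophils and hepatocytes. It ran the other way without being counted, 8.97 against 9.78, with 3.87 and 4.01 on the remaining arrays. Among the 15 genes ranked first by difference, values under the limits included, the Mas-related receptors Mrgpra2a and Mrgpra2b, the myeloid lectin Clec5a and the eosinophil ribonuclease pseudogene Ear-ps2 were also present. Mrgpra2a and Mrgpra2b are close copies, as are genes of the Ear family.

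General leukocyte genes were higher in 21 of 23 and lower in 0, with a median of 1.79. The tetraspanin Cd53 read 9.33 against 6.39 (7.71-fold), the phagocyte GTPase Rac2 9.36 against 6.47 (7.42-fold) and the integrin subunit Itgb2 8.16 against 5.35 (6.99-fold). Spi1 (PU.1), an ETS factor that directs myeloid fate, read 7.71 against 5.60, 4.32-fold. Monocyte and macrophage genes were higher in 11 of 18, with a median of 1.29, or 0.77 with dim values at the limit. Tyrobp and Fcer1g, signalling partners of many myeloid receptors, were at least 7.65-fold and 6.39-fold higher. Within that list the complement genes C1qa (5.99 against 5.93) and C1qb (7.86 against 7.27) and the receptor Csf1r (7.07 against 6.57), marks of tissue macrophages, were not counted. Kupffer cell genes, those of liver macrophages, were higher in 0 of 7 and lower in 3, with Clec4f at 2.77 against 6.13, Vsig4 at 2.23 against 5.41 and Folr2 at 3.08 against 5.90. The MHC class II list had 1 of 13 higher, H2-Aa (2.24-fold), and 6 after quantile normalization.

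Red cell genes were higher in 12 of 23 and lower in 0, with a median of 1.32, or 0.38 with dim values at the control limit, which 8 of 23 exceeded on the non-stem array. Slc4a1, the band 3 anion exchanger, read 8.23, 6.19, 3.51 and 3.58 on the knockout, non-stem, wild-type stem and LncGata6 mutant arrays. The pair compared were both above the limit and the others were not. Car1, a red cell carbonic anhydrase, read 7.25 against 3.64 and Rhag, of the Rh complex, 6.49 against 3.55. Alas2, the erythroid haem synthase step, read 8.11 against 7.17 and was not counted. The GATA letters AGATAA stood in 6 of 15 red cell promoters (40%), against 10.3% of all. Among progenitor genes, 3 of 11 were higher, namely Ms4a3 of granulocyte progenitors (6.20 against 2.40), Myb (5.90 against 3.28) and Cebpe, a factor of granule maturation (4.71 against 3.23, both under the control limits). Cd34 (4.22 against 5.06) and Meis1 (2.95 against 3.63) were not counted. The progenitor median was -0.11, or 0.03 with dim values at the limit, so the list was not higher as a group. Prg2, the eosinophil major basic protein, read 7.83 against 4.35 and Epx, eosinophil peroxidase, 5.50 against 3.29. They were among 4 of 14 mast cell, basophil and eosinophil genes that were higher. The median of that list was 0.42, or 0.03 with dim values at the limit. Of 10 platelet genes 1, Ppbp, was higher, and the median was 0.23, or 0.03 with dim values at the limit.

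B cell genes were higher in 8 of 20 and lower in 0, with a median of 0.78 (0.34 with dim values at the limit), and quantile normalization gave 13 of 20 and 1.41. Ighm, the heavy chain of IgM, read 10.48 against 7.93, with 6.54 and 6.11 on the wild-type and LncGata6 mutant stem arrays. It was highest on the knockout array, 5.86-fold over non-stem. Ms4a1 (CD20) was 4.91-fold and Cd79b, a signalling chain of the B cell receptor, 4.26-fold higher. The early B cell genes Rag2 and Igll1 were under the limits on both. Plasma cell genes were higher in 3 of 8 and lower in 1, with a median of 0.89 (0.15 with dim values at the limit). Jchain, which joins secreted IgA and IgM, read 8.02 against 5.35, with 8.61 on the wild-type stem array. Sdc1 was the lower member, at 4.37 against 5.46. T cell genes were higher in 4 of 15, and in 8 of 15 after centring, quantile normalization or cyclic loess. Their median was 0.88, but 0.03 with dim values at the limit, which is only the difference between the control limits. Only 1 of the 15 was above the limit on the non-stem array. Cd3e read 6.69 against 5.60 with 8.71 on the LncGata6 mutant array, and Cd4 5.98 against 3.73. Cytotoxic lymphocyte genes went both ways. The granzymes Gzma (5.88 against 7.86) and Gzmb (4.61 against 6.08) were lower, and the chemokine Ccl5 (8.58 against 6.96) and Nkg7 (7.19 against 5.62) were higher. Of 15 innate lymphoid genes 2 were higher and 2 lower, and 4 were higher after quantile normalization. Il7r, the interleukin-7 receptor, read 6.08 against 3.62 and Id2, a regulator these cells share with gut epithelium, 7.76 against 9.17.

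Antibody variable genes, taken up after their values were seen, were mostly higher. Of 117 Ighv genes 100 were higher and 0 lower, and of 86 Igkv genes 72 and 0, with medians of 2.83 and 3.01. The median Ighv level was 8.28 on the knockout array, 5.25 on the non-stem, 8.03 on the wild-type stem and 6.17 on the LncGata6 mutant array. The knockout and wild-type stem arrays were high and the non-stem array lowest. T cell receptor variable genes were counted higher in 0 of 88 Trav and 1 of 21 Trbv genes. Olfactory receptor genes, rarely transcribed outside the nose, were counted in 0 of 1229. Antigen receptor segments of all kinds made up 19.1% of all higher genes, 176 of 923, and 0 of the lower ones. Their members are near-copies whose signals may mix, so they are not independent genes. Counts of Ighv and Igkv were 100 and 73 after each of centring, quantile normalization and cyclic loess.

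**Figure D4:**
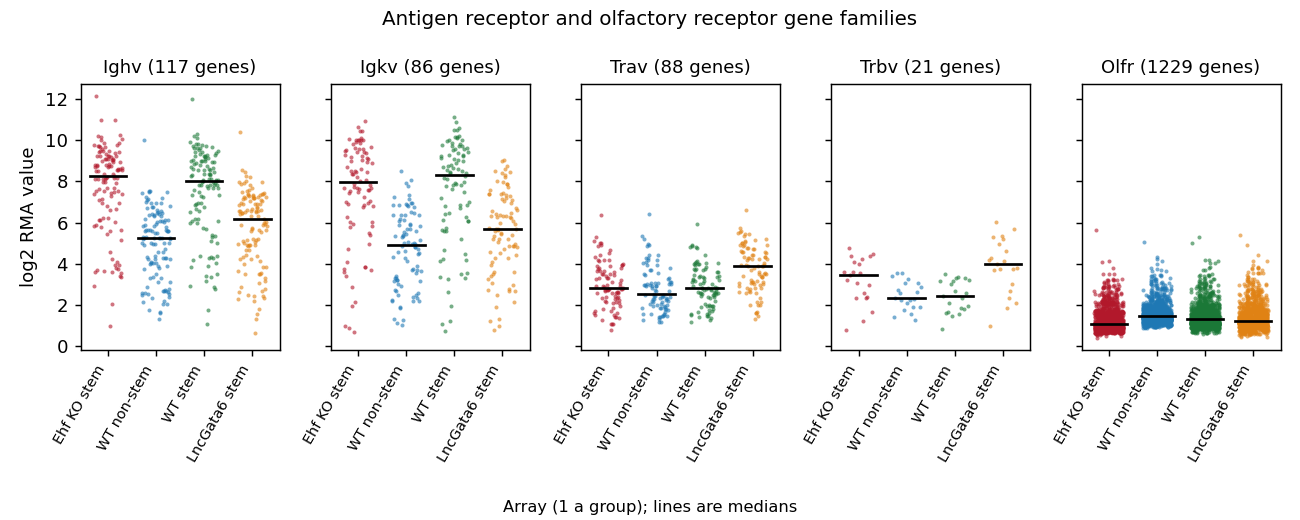
Log2 values (y) of the genes of 5 receptor families on the 4 arrays (x), with a line at each median. Ighv medians were 8.28, 5.25, 8.03 and 6.17 from left to right, while Trav, Trbv and Olfr medians stayed under the control limits.

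Genes of dividing cells were higher as a group. Of 30 mitosis genes 27 were higher and 0 lower, with a median of 2.53. With dim values set at the control limit that median was 0.61, since only 2 were above the limit on the non-stem array. Mki67, the Ki-67 proliferation antigen, read 9.78, 5.97, 8.55 and 6.84 on the knockout, non-stem, wild-type stem and LncGata6 mutant arrays. It was highest on the knockout array, 14.0-fold over non-stem. Ccnb2, a B-type cyclin, read 7.93, 4.65, 7.94 and 6.74, and so was highest on the knockout and wild-type stem arrays. Top2a and Kif11, a topoisomerase and a spindle motor, both read 7.47, against 4.27 and 3.89. DNA replication genes were higher in 14 of 24 with a median of 1.64, or 0.21 with dim values at the limit. Of ribonucleotide reductase, Rrm1 read 7.85 against 5.20 (6.26-fold) and Rrm2 7.38 against 4.07 (at least 4.67-fold). Pcna, the polymerase clamp, was 4.14-fold higher. Histone genes of S phase were higher in 5 of 8 measured of 14 listed, among them H2bc18 (8.02 against 4.97, at least 7.25-fold) and the linker histone H1f1 (6.91 against 1.73, at least 3.37-fold).

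The CCAAT letters stood in 20 of 26 mitosis promoters (76.9%) against 34.5% of all, and the CHR letters TTTGAA, a cell cycle element, in 8 of 26 (30.8%) against 16.3%. The Ccnb2 window, shown because it holds both, is chr9:70421555-70421804 on the minus strand, with 3 CCAAT and 1 CHR match in capitals.
Ccnb2: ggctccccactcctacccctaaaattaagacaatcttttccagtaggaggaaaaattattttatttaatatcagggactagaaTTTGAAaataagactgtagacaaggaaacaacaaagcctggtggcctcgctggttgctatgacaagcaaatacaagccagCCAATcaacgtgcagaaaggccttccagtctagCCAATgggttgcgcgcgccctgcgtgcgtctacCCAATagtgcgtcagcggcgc

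On the lower side liver plasma proteins stood first, with 25 of 25 measured lower, beside 9.84% over all genes and 13.8% over protein coding genes. Their median was -7.74. With dim values at the control limit the median was -5.22. Alb read 1.83 and 12.52 on the knockout and non-stem arrays, with 2.13 for wild-type stem and 2.17 for LncGata6 mutant cells. The non-stem array was high and the other 3 lay under their limits. Apoa2, of high-density lipoprotein, read 1.99, 11.79, 2.49 and 2.49 with the same pattern, at least 97.0-fold lower. Mup20 and Mup3, urinary pheromone carriers of the liver, were at least 71.8-fold and 72.4-fold lower, and Serpina1c and Serpina1b, antitrypsins, at least 92.8-fold and 75.7-fold. Mup and Serpina1 genes are near-copies whose signals may mix. Trf, transferrin, was the one list member above the limit on the knockout array, at 7.46 against 11.72, 19.2-fold lower. The C/EBP letters TTNNGNAAT stood in 7 of 20 of these promoters (35%) against 10.3% of all. They also stood before the granule genes Ltf, Ngp, Chil3, Cd177 and S100a9. CCAAT letters, given above for mitosis genes, also stood before granule genes such as Elane and Ltf and liver genes such as Alb and Apoa2. The Alb window, chr5:90460620-90460869 on the plus strand, holds 1 C/EBP match and 2 CCAAT matches, 1 of them reversed, in capitals.
Alb: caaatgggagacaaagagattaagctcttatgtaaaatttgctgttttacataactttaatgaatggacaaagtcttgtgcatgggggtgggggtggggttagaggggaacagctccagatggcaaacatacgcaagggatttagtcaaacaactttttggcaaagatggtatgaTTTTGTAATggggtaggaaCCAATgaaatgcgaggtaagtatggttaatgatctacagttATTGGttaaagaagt

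Other lists of hepatocyte functions followed, some of whose members were also bright on the stem-labelled arrays. With dim values at the limit, medians were -2.82 for coagulation and complement, -3.56 for cytochromes P450, -3.31 for amino acid breakdown and -1.46 for bile acid genes. Coagulation and complement genes were lower in 29 of 29, with a median of -5.57. The fibrinogen chains Fga, Fgb and Fgg read 10.62, 10.89 and 10.84 on the non-stem array and 1.51, 1.41 and 1.09 on the knockout array. Liver cytochromes P450 were lower in 19 of 21 with a median of -6.77, led by Cyp2e1, which oxidises ethanol (1.94 against 11.67, at least 89.5-fold). Cyp7a1, the rate-limiting step of bile acid synthesis, was under the limits on both. Amino acid breakdown genes were lower in 20 of 20 (median -5.37), among them Hgd and Hpd of tyrosine breakdown. Bile acid genes were lower in 15 of 16 (-4.57) and gluconeogenesis and fructose genes in 9 of 11 (-4.39), with G6pc, glucose-6-phosphatase, at 2.14 against 10.09. Of the urea cycle 5 of 6 were lower. Its first enzyme Cps1 read 2.39, 10.40, 9.88 and 7.87, so the knockout array was low and the other 3 were high. Otc of the same list (2.11, 7.68, 8.21 and 7.73) and Slc51b of the bile acid list (2.58, 7.34, 8.76 and 10.26) had that pattern too. Of 12 hepatocyte transcription factors 7 were lower, with Hnf4a, shared with the gut, at 4.57 against 8.16. All 11 Ugt genes, which attach glucuronic acid, and 53 of 104 Cyp genes were lower, families taken up after values were seen.

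Genes known to differ between male and female liver were counted as separate lists. Male-biased liver genes were lower in 13 of 13 with a median of -6.92, of which 8 are also in other liver or metabolic lists. Female-biased genes were lower in 2 of 11, with a median of -0.90, and 2 were above the limit on the non-stem array. With dim values at the limit these medians were -3.60 and 0.03, the latter being only the difference between the control limits. The difference between the lists was not tested. Xist, the noncoding RNA of the inactive X, read 8.79 on the knockout, 1.93 on the non-stem, 8.46 on the wild-type stem and 2.44 on the LncGata6 mutant array, at least 12.4-fold higher than non-stem. The Y-linked Uty read 1.92 against 5.28, Eif2s3y 2.01 against 4.66 and Kdm5d 2.13 against 4.50. Eif2s3y and Kdm5d were under the limits on both arrays and not counted. The arrays compared thus differed in sex-linked transcripts, and their part in other differences was not tested. Among other named long noncoding genes, AU020206 was 2.86-fold higher (6.83 against 5.32). Gm19950 was at least 4.70-fold lower (2.03 against 7.42).

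Kidney proximal tubule genes were lower in 26 of 28, with a median of -5.77, or -3.44 with dim values at the limit. Kap read 1.41, 12.30, 1.58 and 1.48 on the knockout, non-stem, wild-type stem and LncGata6 mutant arrays, high on the non-stem array alone. Slc34a1, the sodium phosphate carrier, read 2.88, 10.39, 3.30 and 3.30, and Lrp2 (megalin), which takes up filtered protein, 2.13, 10.08, 2.15 and 2.16. Both had the same pattern. Loop, distal and collecting tubule genes were lower in 19 of 24 (median -3.61, or -1.37 with dim values at the limit), with Umod, uromodulin of the thick ascending limb, at 2.04 against 10.10 and Aqp2, the collecting duct water channel, at 3.56 against 6.99. Of 6 glomerulus genes 1, Podxl, was lower, and the podocyte gene Nphs1 was under the limits on both. The digestive enzymes of pancreatic acinar cells were not counted, and the 1 of 16 genes in that list that was lower, Zg16, is also a goblet cell gene. Liver and kidney transcripts that were high on the non-stem array alone, such as Alb and Kap, lie outside its small intestine label. Their source was not tested. Other members of these lists were bright on stem-labelled arrays too, so the lists do not separate liver or kidney from gut. In the order given for Kap, Apob read 2.43, 10.41, 7.37 and 11.29, Slc5a8 3.10, 8.74, 4.98 and 8.15, and Slc6a19 2.88, 7.36, 3.97 and 8.68.

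Enterocyte genes and part of the other gut epithelial genes were also lower. Of 33 enterocyte genes 30 were lower and 0 higher, with a median of -5.01 (-2.44 with dim values at the limit), and 4 of the 33 are also in liver, kidney or metabolic lists. Fabp2, the intestinal fatty acid binder, read 1.95, 9.50, 9.54 and 12.19 on the knockout, non-stem, wild-type stem and LncGata6 mutant arrays. Sis, the sucrase, read 1.75, 7.01, 8.86 and 10.75, and Alpi, the brush border phosphatase, 3.16, 8.72, 6.79 and 10.64. In each the knockout array was the lowest. Of 18 goblet cell genes 6 were lower and 1 higher. Muc2, the gel mucin, read 3.0 against 6.57, with 9.74 and 10.26 on the remaining arrays, and Zg16, a bacteria-binding lectin, 3.67 against 9.12. Klk1, a kallikrein abundant in kidney as well, read 4.37 against 11.60. The goblet list member that was higher, Ccl6, is a chemokine also made by myeloid cells (6.09 against 4.47). Surface defence genes were lower in 7 of 17 and higher in 1, Saa3 (4.99 against 3.48, both under the control limits). Reg3b, an antibacterial lectin, read 2.32, 8.47, 10.95 and 11.68, and Pigr, which carries IgA across the epithelium, 3.53, 9.35, 10.47 and 10.64. Of 12 Paneth genes Lyz1 was higher (9.29 against 7.38) and Habp2, also a liver product, lower (3.22 against 7.82). Defa21 and Defa22, defensins, were under the limits on both. The tuft list had 4 of 14 higher, Alox5, Cd24a, Plcb2 and Gfi1b, all of which blood cells also express, while its defining Dclk1, Trpm5 and Pou2f3 were under the limits on both. Sucnr1 was its 1 lower member, at 2.95 against 5.39, and the tuft median was -0.01. Of 23 enteroendocrine genes 1, Sst, was lower. Medians were -0.69 for Paneth and 0.10 for enteroendocrine genes, and 0.03 for each with dim values at the limit. The lower counts of these lists stand beside 9.84% over all genes. Of 11 regenerative crypt genes 3 were higher and 3 lower, with a median of 0.10. Anxa1, a protein abundant in neutrophils, read 9.05 against 4.36 and was higher with Anxa3 and S100a6. Clu (4.83 against 8.94), Ccn1 (3.26 against 6.24) and Ccn2 (3.86 against 5.92) were lower.

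**Figure D5:**
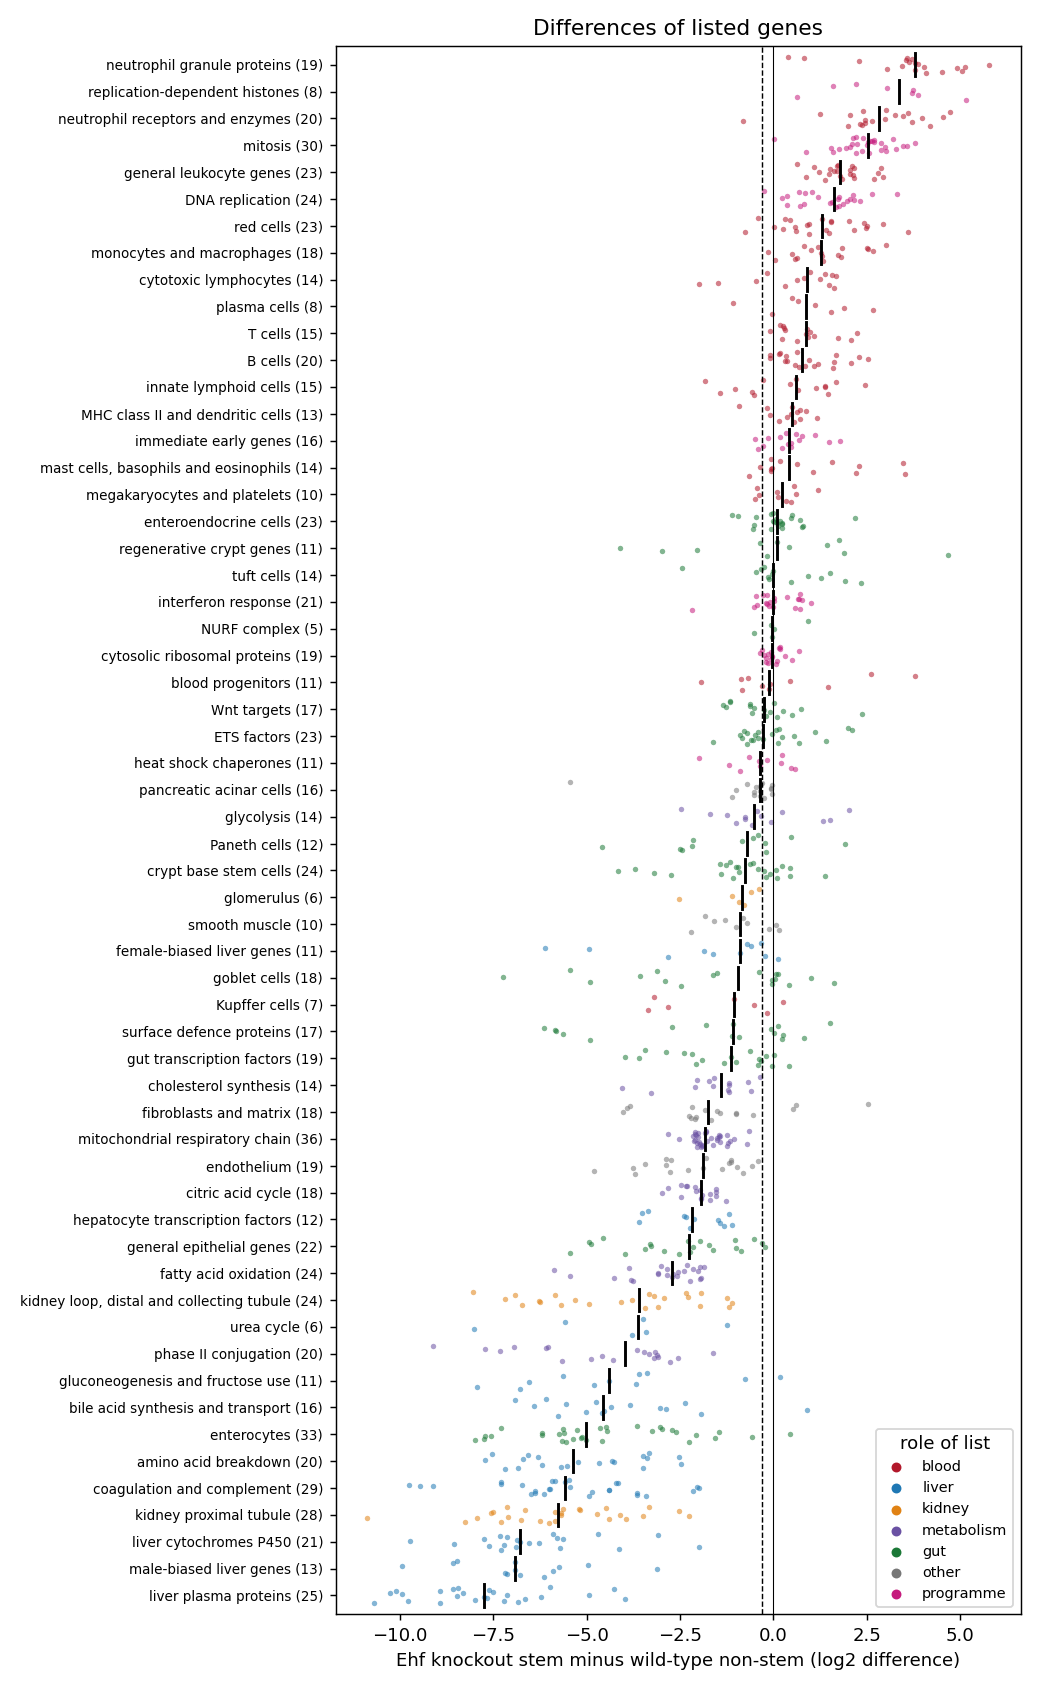
Difference of each measured gene (x, log2) in 58 lists (y, number measured in brackets), coloured by role, with a bar at each median and a dashed line at the median of all genes, -0.29. Neutrophil granule proteins lie at the top with a median of 3.79 and liver plasma proteins at the bottom with -7.74.

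Transcription factors of the gut and of the ETS family were examined because Ehf belongs to the latter. Of 23 measured ETS genes 4 were higher, Spi1, Spic, Elf4 and Fli1, and 1, Elf3, was lower. Spic, a factor of red pulp and iron-recycling macrophages, read 5.65 against 3.65, Elf4 6.48 against 5.07 and Fli1, of blood and vessels, 7.29 against 6.18. Elf3, another ETS factor of epithelia, read 3.71, 5.33, 8.14 and 7.02, lowest on the knockout array. Of 19 gut factors 5 were lower, Hnf4g, Hnf4a, Vdr, Maf and Creb3l3. The intestinal determinant Cdx2 read 4.27 against 4.69, with 6.71 and 6.31 on the remaining arrays, and Klf5 read 4.94 against 4.91. Both arrays compared were under their limits for these. NURF, a nucleosome remodeller, had 0 of 5 members counted, with Bptf at 5.89 against 5.92. Of 17 Wnt target genes 1, Cd44, an adhesion receptor also on leukocytes, was higher (6.76 against 4.37).

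Metabolic genes, only some of them common to many cells, were mostly lower too. All 24 measured genes of fatty acid oxidation were lower (median -2.71), as were all 18 of the citric acid cycle (-1.95) and 34 of 36 of the respiratory chain (-1.82). Quantile normalization gave 22 of 36 for the last. Sdha, which serves both the cycle and the chain, read 5.45 against 8.26, with 6.43 and 6.48 on the remaining arrays, highest on non-stem. Conjugation genes were lower in 18 of 20 (-3.98, or -2.61 with dim values at the limit). On the knockout, non-stem, wild-type stem and LncGata6 mutant arrays Ugt3a2 read 1.09, 10.20, 1.54 and 1.13, high on non-stem alone. Ugt2b34 read 1.86, 7.94, 8.13 and 8.82. Cholesterol synthesis genes were lower in 10 of 14 (-1.40, or -0.79 with dim values at the limit), with 5 of 14 after quantile normalization. Hmgcs1, HMG-CoA synthase, read 5.0 against 9.05. Glycolysis was divided, with 3 of 14 higher, the hexokinases Hk2 and Hk3 and the glucose carrier Slc2a3, and 4 lower, Tpi1, Pgk1, Pgam1 and Gapdh. The lower count was 2 after each of centring, quantile normalization and cyclic loess. Cytosolic ribosomal proteins were counted in 0 of 19 measured of 37 listed, with a median of -0.04.

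Vessel and matrix genes were mostly lower. Endothelial genes were lower in 11 of 19 (median -1.89, or -0.38 with dim values at the limit), among them Kdr, the main VEGF receptor (3.03 against 6.78), and Emcn (1.64 against 6.45). Fibroblast and matrix genes were lower in 11 of 18 (-1.75, or -0.59 likewise), with Sparc at 4.57 against 8.41 and Dcn, decorin, at 2.38 against 6.41. Vim, the intermediate filament of both fibroblasts and leukocytes, was the one member higher, at 8.99 against 6.44. Smooth muscle genes were lower in 4 of 10, and in 2 after quantile normalization. Among stress programmes, immediate early genes were higher in 3 of 16, Fosb, Fos and Klf6, and quantile normalization gave 8 of 16. Interferon response genes had 0 of 21 higher and 1, Bst2, lower, and quantile normalization gave 7 higher. Of 11 heat shock genes Hspd1, a mitochondrial chaperonin, was lower.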

How the data were processed

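Per the labels' protocols, total RNA extracted with Trizol was biotin-labelled and read on Clariom D arrays. The deposited table holds the authors' log2 values, 1 per feature and array. Summarising used Affymetrix Power Tools and RMA, per the submitters' processing notes. Their versions and any genome build are not given in the sources used here. The scale was read from the values, which ran from -0.18 to 13.1.

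Gene symbols came from the platform annotation and were updated for 1801 features through a RefSeq table. Features with several symbols (1480) or none (39938, of which 33206 were transcript clusters) were left out. For 441 genes with more than 1 feature the brightest was used. Differences and counts were computed with Python 3.11.15, pandas 2.3.3 and numpy 2.4.6, and rescaling with limma 3.58.1 in R 4.3.3. Counting was tested on simulated data. Alternatives were 3 rescalings, other brightness limits, the median of a gene's features, protein coding genes only and symbols as given. List medians with values under the control limit set to it were added after seeing the data.

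The comparison, the 59 gene lists (978 distinct genes measured) and the promoters were chosen with earlier results of these data known. The rule for named genes covers the targeted gene and sort markers (Epcam, Ptprc, Ehf, Gata6, Lgr4 and Lgr5, Olfm4, Ascl2 and Axin2), the 15 largest counted differences each way, up to 6 counted members of each list, members against their list, 5 noncoding genes each way and sex-linked genes. The 15 leave out predicted genes, clone symbols, small RNAs, olfactory and vomeronasal receptors and antigen receptor segments. Other list members named by role were chosen after their values were seen. Promoters were 250 bases long, and 18275 measured genes had one.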

Additional observations from a re-analysis of the deposited data

How the results depend on the processing

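Centring, quantile normalization and cyclic loess, the other brightness limits, the median of features, the restriction to protein coding genes and the older symbols were each run. Quantile normalization gave 1757 genes higher and 1859 lower, a share of 48.6% higher, against 923, 3021 and 23.4% as reported. The share was 34.8% after centring and 38.7% after cyclic loess. With no brightness limit 4582 genes were lower, and among protein coding genes alone, which are fewer, 606 were higher. The cause of the shifts between rescalings was not tested. Of 267 named genes that were counted, 252 were counted in every setting that held them, 15 were lost in at least 1 and 0 changed direction. All 32 lists with a median of at least 1 in size kept its sign under the rescalings, the median of features, protein coding genes and older symbols. With values under the control limit set to it, an alternative chosen after seeing the data, 3 of the 32 turned to 0.0315, namely gut transcription factors (-1.12 as reported), surface defence proteins (-1.08) and sex-linked genes (-2.37). That value is only the difference between the control limits of the arrays. Bub1, Cd28, Cdca7, Cebpe, Gfi1b, Prss34 and Saa3 lost their count when the brighter value had to exceed the control limit. No paired analysis was possible because each group has 1 array. Differences with 1 side under the control limit are bounds in size.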

Other observations

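Features outside the gene counts were also counted lower more often than higher. Of 33206 unnamed transcript clusters 295 (0.888%) were higher and 506 (1.52%) lower, and of 1480 features with several symbols 75 (5.07%) were higher and 138 (9.32%) lower. Over all genes the shares were 3.01% higher and 9.84% lower. Among named kinds of RNA, 7 of 3343 long noncoding genes were higher (0.209%) and 22 lower (0.658%). Of 4803 pseudogenes 92 were higher (1.92%) and 297 lower (6.18%). Of 955 small nucleolar RNAs, which guide changes to ribosomal RNA, 26 were higher (2.72%), near the share over all genes. Only 8 were lower (0.838%), and their median difference was -0.08.

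Several transporter and enzyme families, taken up after their values were seen, had members counted on 1 side alone. Slc22a organic ion carriers were lower in 16 of 24 (median -3.69), Ces carboxylesterases in 12 of 19 (-3.39), Akr1 reductases in 11 of 14 (-3.06) and Mup genes in 19 of 27 (-5.69). Slfn genes, several of which are expressed in myeloid cells and lymphocytes, were higher in 6 of 10 (1.21), and Ms4a genes, which include Ms4a1 and Ms4a3, in 8 of 20 (0.55). The signs of these medians were the same after centring, quantile normalization and cyclic loess. Close copies within these families may share signal.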
